A study of Homo sapiens with 12 samples.

Results

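The mitochondrial genome transcripts are the RNAs copied from the circular chromosome inside mitochondria, and they were counted in 12 RNA-seq libraries of HEK293, a human embryonic kidney cell line. Members were the rows of both gene count tables whose symbol begins with MT-, with the symbol looked up from the Ensembl identifier where the table gave none. This rule found 35 members among the 38927 genes that had a row in either table. They were 13 mRNAs, 2 rRNAs and 20 tRNAs in experiment 1, and all but 6 of the tRNAs in experiment 2, which held 29 members. MT-TG and MT-TR had no row in either table, and MT-TL1, MT-TC, MT-TK, MT-TH, MT-TS2 and MT-TL2 had none in experiment 2.

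In each of 2 experiments, 3 control libraries were set against 3 from cells that make RBFOX1, a regulator of alternative splicing. The line named HEK293_Flp In/TO ΔFox2_Flag_mFox1 was built on 1 clone deficient in RBFOX2, a protein related to RBFOX1. It carries HA- and Flag-tagged mouse Rbfox1 behind a promoter that doxycycline opens. Controls were untreated cells of that line in experiment 1 (uninduced) and doxycycline-treated parental HEK293 cells in experiment 2 (parental). The RBFOX1 libraries of both experiments (induced) came from the inducible line after doxycycline, stated as 0.5 µg/ml for 2 weeks. Dose and time are not given separately for the parental cells. In experiment 1 doxycycline and RBFOX1 cannot be told apart, and in experiment 2 RBFOX1, the RBFOX2 deficiency and the clone cannot be told apart. The labels do not say whether replicates were separate cultures, so the p-values measure the spread between these libraries, which may be technical.

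Mitochondrial DNA is transcribed from both of its strands as long precursors. The heavy-strand precursor holds both rRNAs and most mRNAs and tRNAs, while the light-strand precursor holds a single mRNA, MT-ND6, and a minority of the tRNAs. Nuclear-encoded RNases release most mRNAs and rRNAs by cutting out the tRNAs between them, and the steady level of each RNA then depends largely on how stable it is. The proteins made are subunits of the respiratory chain: ND genes for complex I, MT-CYB for complex III, CO genes for complex IV and ATP genes for the ATP synthase.

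The libraries of experiment 1 held between 34025315 and 55298749 gene counts each, and those of experiment 2 between 37663525 and 50261916. RBFOX1 stood at 3.26 to 4.41 CPM (counts per 1000000 counts, after scaling) in uninduced and 38.8 to 39.5 in induced libraries of experiment 1. It had no read in the 3 parental libraries, where 3 reads would give at most 0.0735 CPM, and 39.7 to 41.0 CPM in the induced ones. The listed genome is human, so reads of the mouse Rbfox1 count here only where they aligned to the human gene. These values are therefore not the full level of RBFOX1. RBFOX2 stood at 50.8 to 58.1 CPM in experiment 1, uninduced and induced libraries alike. In experiment 2 it stood at a mean of 183 CPM in parental cells and at 46.5 to 55.9 CPM in induced cells of the inducible line. Uninduced library 3 differed from the others of its group, with the lowest depth and 1.68% of counts in RN7SK, a small nuclear RNA, against 2.71% and 2.85% in its companions. Of 6 markers of HEK293 cells, 4 reached 1 CPM on average in each group of the inducible line and 5 in parental cells, led by VIM at 776 to 918 CPM, and LHX1 had no row. NEFM had a mean of 36.1 CPM in parental cells and of at most 0.502 CPM in the other groups. Among 8 markers of other cells only COL1A1, PDGFRA and, in parental cells, GFAP (2.05 CPM) reached 1 CPM, while PTPRC and ALB stayed at or under 0.133 CPM and PECAM1 had no row. The part of these differences in the results below was not tested.

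Of the 3 RNA classes, mitochondrial rRNA differed most between the experiments. MT-RNR1 and MT-RNR2, the RNAs of the small and large mitochondrial ribosomal subunits, together took 26.7%, 26.4% and 24.7% of all counts in uninduced libraries 1, 2 and 3. They took 26.7%, 25.6% and 26.4% in the induced libraries of the same experiment. All 6 libraries of experiment 1 thus gave about the same share, and the mean difference of 0.286 points had an exact permutation p of 0.9 (two-sided, 3 against 3 libraries, where no p under 0.1 is possible). In experiment 2 the same RNAs took 0.0364%, 0.0339% and 0.0362% of counts in the parental libraries and 0.0485%, 0.0725% and 0.0546% in the induced ones. The groups did not overlap, and the induced mean was 1.65 times the parental mean (exact permutation p = 0.1, two-sided).

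**Figure D1:**
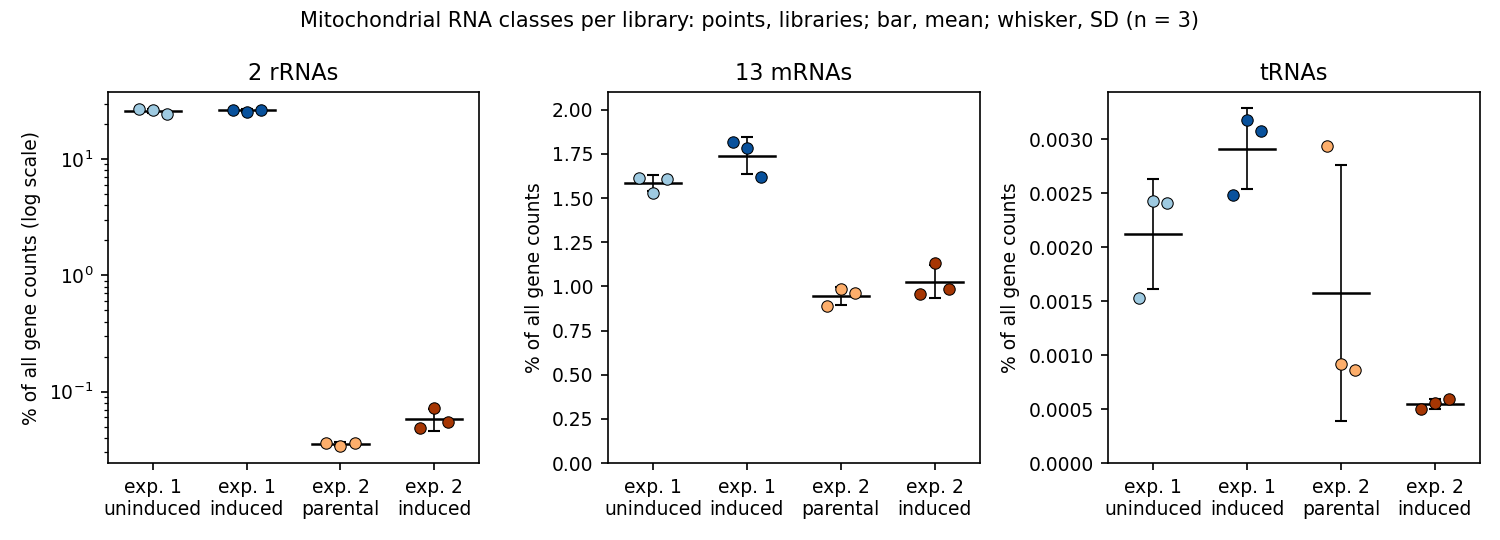
Share of all gene counts taken by the 2 rRNAs (left, log axis), the 13 mRNAs (middle) and the tRNAs (right) in each of the 12 libraries, as points with the mean and SD of each group of 3. The rRNA share lies between 24.7% and 26.7% in experiment 1 and between 0.0339% and 0.0725% in experiment 2, while the mRNA shares of the experiments differ far less.

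The mRNAs took between 0.887% and 1.82% of counts in all libraries, a much smaller gap than that of the rRNAs. These totals include the rRNA reads, which are many in experiment 1 and few in experiment 2. With rRNA and RN7SK left out of the totals, mean shares were 2.21% in uninduced and 2.46% in induced cells of experiment 1. In experiment 2 they were 0.981% in parental and 1.07% in induced cells, a wider gap between the experiments. Uninduced libraries 1, 2 and 3 had 1.61%, 1.53% and 1.61% of counts in the 13 mRNAs, and the induced libraries of experiment 1 had 1.82%, 1.78% and 1.62%. All induced values were above all uninduced values, by 0.156 points on average (SE 0.0673, exact permutation p = 0.1, two-sided, n = 3 per group). Parental libraries had 0.887%, 0.985% and 0.961%, and the induced libraries of experiment 2 had 0.959%, 1.13% and 0.987%. Here the groups overlapped and the difference of 0.0817 points (SE 0.0611) had an exact permutation p of 0.3 (n = 3 per group). Without induced library 2 it was 0.0288 points, and without parental library 1 it was 0.0529 points. Counting error was small beside these spreads, with 95% Wilson intervals of at most 0.00423 points to either side, which cover counting error only. In bulk RNA such a share cannot tell fewer mitochondria or cells from less RNA in each.

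The balance of the 2 rRNAs differed between the groups of experiment 2. Both rRNAs together took at most 0.0725% of counts there, and whether rRNA was removed is not given. The part of rRNA removal in the values below was not tested. Parental libraries held 5.55, 5.39 and 5.54 MT-RNR2 reads for each MT-RNR1 read, and the induced libraries held 8.55, 7.25 and 8.0. The groups did not overlap (exact permutation p = 0.1, two-sided, 3 against 3). In experiment 1 the uninduced ratio was 8.15 ± 0.668 and the induced ratio 7.94 ± 1.55 (SD, n = 3), with overlapping groups. MT-RNR2 rose in experiment 2, with means of 299 ± 14.7 CPM in parental and 521 ± 101 CPM in induced libraries and a log2 change of 0.80 (SE 0.085, adjusted p = 4.66e-08 by edgeR's quasi-likelihood test with Benjamini-Hochberg adjustment over all genes). MT-RNR1 had 55.6, 52.4 and 55.3 CPM in parental and 51.2, 87.3 and 61.4 CPM in induced libraries. It passed the edgeR test at a log2 fold change of 0.29 (adjusted p = 0.0293), but induced library 1 was below every parental library. Without induced library 2 the change of MT-RNR1 was 0.049 and not called (edgeR adjusted p = 0.584), and the call was also lost without parental library 2 or 3 (0.0837 and 0.0538) and under DESeq2 (0.271). In experiment 1 neither rRNA was called, at 0.09 and 0.03.

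Within the mitochondrial mRNA pool, complex IV mRNAs dominated every library. They made up 67.8 ± 1.52% of mitochondrial mRNA reads in uninduced cells, 66.4 ± 1.64% in induced cells of experiment 1, 80.9 ± 1.69% in parental cells and 85.1 ± 0.531% in induced cells of experiment 2 (SD, n = 3). Complex I mRNAs, 7 genes, made up 22.5%, 21.1%, 13.9% and 10.8% in the same order. MT-CYB alone made up 4.57%, 6.11%, 2.66% and 2.18%, and the ATP synthase mRNAs 5.13%, 6.32%, 2.55% and 1.92%. Per kilobase of gene, MT-CO1 stood highest in uninduced cells, at 4339.7 ± 121 CPM per kb, ahead of MT-CO3 at 3361 ± 298 and MT-CO2 at 1980 ± 84.9. In parental cells MT-CO1 was the lowest of these 3 and MT-CO3 again stood above MT-CO2, with MT-CO3 at 3809.7 ± 227, MT-CO2 at 2978 ± 116 and MT-CO1 at 1676 ± 106 CPM per kb. MT-CO1 in turn stood above the complex I mRNAs in all groups. Lowest per kilobase were MT-ND6 in uninduced cells (136 ± 19.9) and MT-ATP8 in parental cells (88.9 ± 12.3 CPM per kb).

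**Figure D2:**
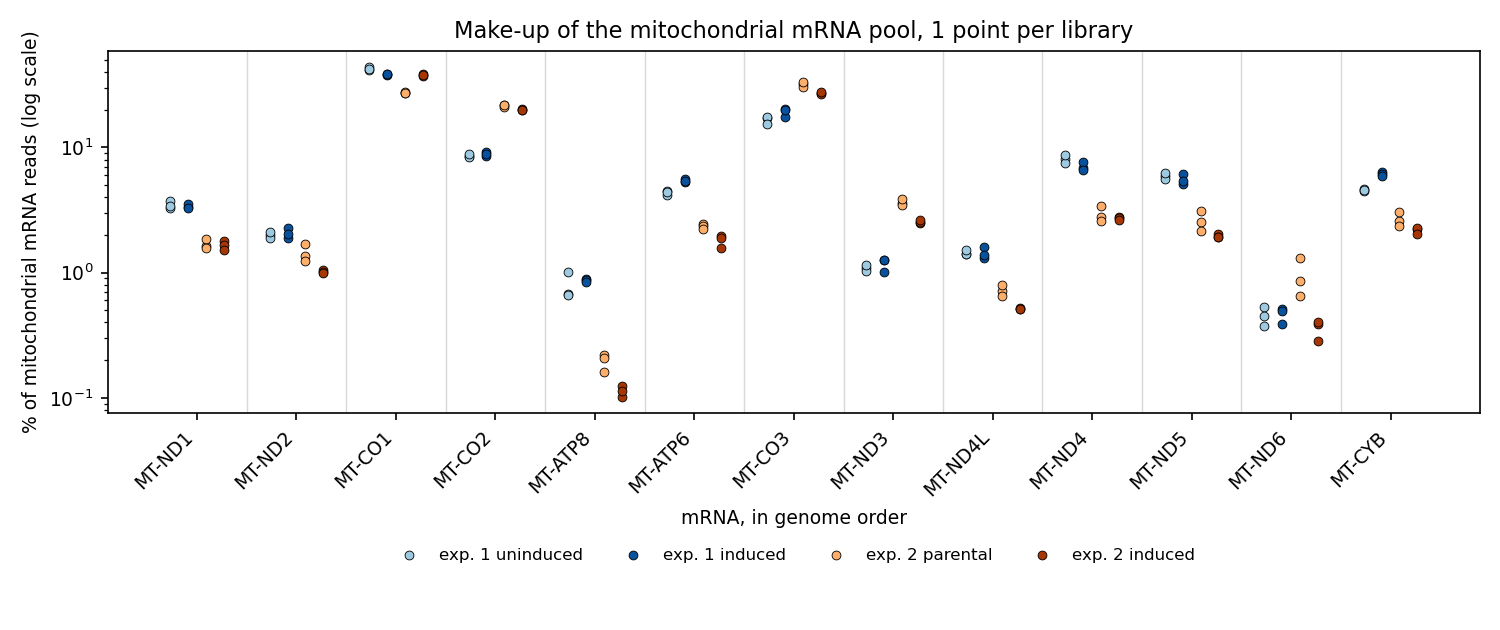
Percent of mitochondrial mRNA reads (log axis) taken by each of the 13 mRNAs in genome order, 1 point for each of the 12 libraries, coloured by group. MT-CO1 lies at 27.0% to 27.9% in parental libraries and at 37.4% to 43.7% in all others, and the induced libraries of experiment 2 lie below the parental ones for 10 mRNAs.

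In experiment 1 the induced cells held more of 3 mRNAs, MT-CYB, MT-ATP6 and MT-CO3. MT-CYB, the cytochrome b of complex III, had 771, 691 and 699 CPM in uninduced and 1177, 1077 and 965 CPM in induced libraries. Every induced library was above every uninduced one, and the log2 fold change was 0.58 (SE 0.086, edgeR adjusted p = 0.00296). MT-ATP6, the proton channel subunit of the ATP synthase, had 740, 645 and 672 CPM against 995, 996 and 875 CPM. These groups too were apart, with a log2 fold change of 0.48 (SE 0.080, edgeR adjusted p = 0.00466). MT-CO3, a core subunit of complex IV, had 2841, 2683 and 2381 CPM against 3800.2, 3089.7 and 3258 CPM. Its groups were apart and its log2 fold change was 0.36 (SE 0.10, edgeR adjusted p = 0.0364). The call of MT-CO3 was the least steady of the 3 and was lost without uninduced library 1 or 2 or induced library 1 or 3, at edgeR adjusted p between 0.0524 and 0.130.

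Thus 3 of 13 mRNAs were called higher and 0 lower by edgeR in experiment 1, while 20.9% of the 18978 genes tested were called, 10.5% higher and 10.4% lower. The median log2 fold change was 0.20 for the 13 mRNAs and 0.0026 for all genes. In CPM the groups did not overlap for 6 of the 13, against 40.1% of all genes. Without uninduced library 3, which stood apart, 5 mRNAs were called, MT-ATP8 (0.52) and MT-ND3 (0.30) joining the others. The other 10 mRNAs had log2 fold changes between -0.04 (MT-ND4) and 0.32 (MT-ATP8). MT-CO1, the catalytic core subunit of complex IV and the most abundant of them all, had 6833, 6763 and 6480.2 CPM in uninduced and 7029.7, 6775 and 6299.9 CPM in induced libraries. The groups overlapped, and its fold change of 0.0021 turned to -0.017 when library totals replaced TMM scaling.

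As shares of the mRNA pool, which do not depend on the scaling of libraries, 4 mRNAs had groups apart in experiment 1. MT-CYB, MT-ATP6 and MT-CO3 took larger shares in induced cells, by 1.54, 1.10 and 2.58 points. MT-CO1 took a smaller one, 38.2 ± 0.464% against 42.5 ± 1.11% (SD, n = 3). Each of the 4 had an exact permutation p of 0.1 (two-sided, 3 against 3), the smallest possible, so that no value adjusted over the 13 mRNAs can fall below it. Shares in 1 pool depend on each other: a larger share for some mRNAs leaves less for the rest.

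**Figure D3:**
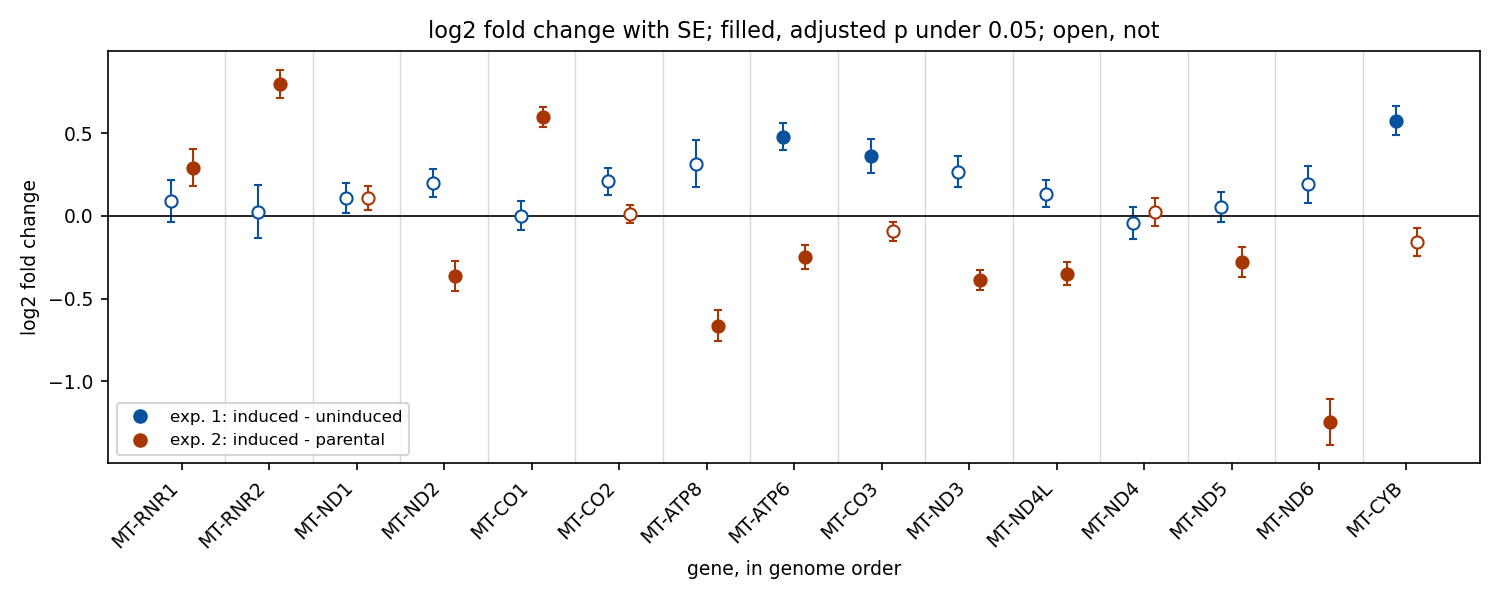
The log2 fold change (points) with its SE (bars) of the 2 rRNAs and 13 mRNAs, in genome order, in experiment 1 (blue, induced minus uninduced) and experiment 2 (brown, induced minus parental). Filled points passed the edgeR test at an adjusted p under 0.05: 3 mRNAs, all higher, in experiment 1, and 1 higher and 7 lower mRNAs with both rRNAs higher in experiment 2.

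In experiment 2 MT-CO1 was the single mRNA that rose. It had 2404, 2719 and 2633 CPM in parental and 3615, 4337 and 3778 CPM in induced libraries. The groups were far apart, with a log2 fold change of 0.60 (SE 0.063, edgeR adjusted p = 3.74e-08). Its share of the mRNA pool was 27.5 ± 0.443% in parental and 37.9 ± 0.592% in induced cells (SD, n = 3; exact permutation p = 0.1, two-sided). MT-CO2 and MT-CO3, the other mitochondrial subunits of complex IV, were not called, at 0.01 and -0.09 (edgeR adjusted p = 0.851 and 0.163). MT-CO2 had 1952, 2049 and 2110.2 CPM against 1946, 2227 and 1993 CPM, in overlapping groups. So the mRNAs of the 3 complex IV subunits did not move alike.

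The 7 mRNAs that fell in experiment 2 were MT-ND6, MT-ATP8, MT-ND3, MT-ND2, MT-ND4L, MT-ND5 and MT-ATP6. MT-ND6, a membrane subunit of complex I and the light-strand mRNA, had 116, 84.0 and 62.2 CPM in parental and 37.8, 32.1 and 40.7 CPM in induced libraries. Every induced library was below every parental one, and its log2 fold change was -1.24 (SE 0.14, edgeR adjusted p = 8.21e-08). MT-ATP8, a small subunit of the ATP synthase, had 19.6, 20.1 and 15.5 CPM against 11.9, 11.5 and 11.3 CPM, again with groups apart. It fell by 0.66 on the log2 scale (SE 0.095, edgeR adjusted p = 2.85e-06). MT-ND3, a complex I subunit, had 323, 337 and 371 CPM against 239.8, 284 and 266 CPM. It too was lower in every induced library, by -0.39 (SE 0.060, edgeR adjusted p = 8.85e-06). MT-ND2, MT-ND4L and MT-ND5, further membrane subunits of complex I, fell by 0.36, 0.35 and 0.28, and MT-ATP6 by 0.25. Still called, MT-ND2 was at -0.20 without parental library 2 and MT-ATP6 at -0.14 without induced library 3. MT-ND1, MT-ND4 and MT-CYB were not called, at 0.11, 0.02 and -0.16. MT-CYB was called lower without parental library 1 or 3 or induced library 2, at -0.22, -0.22 and -0.26 (edgeR adjusted p = 0.0283, 0.0404 and 0.0114), and was at -0.03 without parental library 2. It was also called with the replicate block and with no filter on low counts (0.00522 and 0.00645).

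For experiment 2 as a whole, 1 of 13 mRNAs was called higher and 7 lower, while edgeR called 65% of the 17945 genes tested, 32.1% higher and 32.9% lower. The share of mRNAs called was thus near that of all genes. Their median log2 fold change was -0.25, against -0.0091 for all genes, and the CPM groups did not overlap for 7 of 13 mRNAs against 68% of all genes. DESeq2 called 5 of the 8, leaving out MT-ND2, MT-ATP6 and MT-ND5. Without parental library 2, MT-ND5 was at -0.10 and not called (edgeR adjusted p = 0.175), and MT-ND1 (0.21) and MT-ND4 (0.18) were called higher. In shares of the pool, MT-CO1 was higher in all induced libraries and 10 mRNAs were lower in all of them. MT-ND1 and MT-ND4 had overlapping groups. The share of MT-CO1 was larger by 10.5 points, which by itself leaves less for the rest. MT-CO2, MT-CO3 and MT-CYB were among the 10, although edgeR did not call them lower with all libraries.

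MT-ATP8 and MT-ATP6 lie on a single mRNA with overlapping reading frames, and so do MT-ND4L and MT-ND4. How reads in an overlap were counted is not given in the sources used here, so the split within each pair is uncertain. There were 11.1, 11.4 and 13.8 MT-ATP6 reads for each MT-ATP8 read in parental libraries and 15.8, 18.4 and 13.9 in induced libraries of experiment 2. In experiment 1 the ratio was lower, from 4.32 to 6.66, although the reading frames are the same. For the other pair, induced libraries of experiment 2 held 5.26 ± 0.170 MT-ND4 reads per MT-ND4L read against 4.04 ± 0.266 in parental ones (SD, n = 3), and the groups were apart. In experiment 1 the order was the opposite, with 4.96 ± 0.238 in induced and 5.59 ± 0.212 in uninduced libraries, also apart. Reads of 2 genes on 1 mRNA therefore did not keep a fixed ratio from group to group.

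MT-ND6 is the measure of the light strand among the mRNAs. It took 0.378%, 0.535% and 0.452% of mitochondrial mRNA reads in uninduced libraries and 0.390%, 0.516% and 0.496% in the induced ones of experiment 1. These ranges overlapped almost entirely (difference 0.0125 points, exact permutation p = 0.9, two-sided, 3 against 3). In experiment 2 it took 1.31%, 0.862% and 0.648% in parental libraries and 0.392%, 0.286% and 0.406% in induced ones. All parental libraries were above all others of the series, and the mean difference was -0.578 points (SE 0.198, exact permutation p = 0.1, n = 3 per group). The remaining 12 heavy-strand mRNAs made up the rest of the pool. Counting error reached 0.0370 points at most (95% Wilson interval), less than the spread between libraries. Without parental library 1 the difference was -0.393 points, and the edgeR fold change of MT-ND6 was -0.98 and still called. The labels do not state whether counting used the strand of a read, so reads of MT-ND6 and of the heavy-strand RNA opposite to it cannot be told apart.

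**Figure D4:**
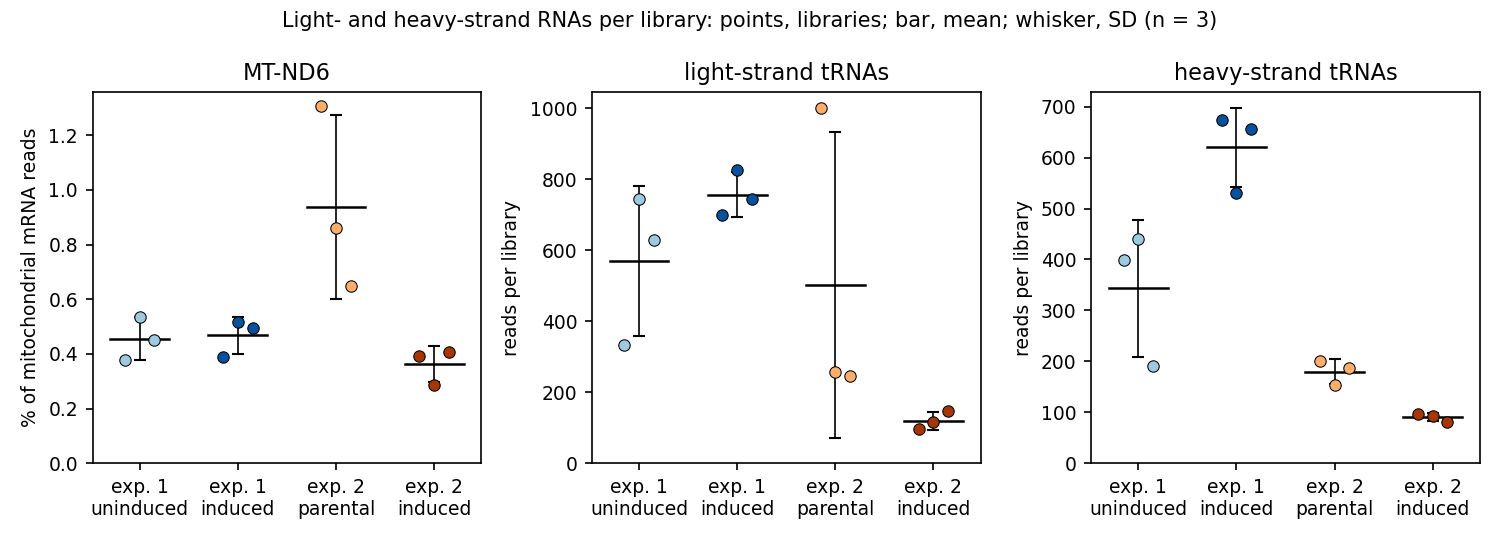
MT-ND6 as percent of mitochondrial mRNA reads (left), and reads in light-strand (middle) and heavy-strand (right) tRNA rows, for each of the 12 libraries with the mean and SD of each group of 3. Parental library 1 is the highest point for MT-ND6, at 1.31%, and for light-strand tRNAs, at 1000 reads.

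The tRNAs gave few reads, between 0.000505% and 0.00318% of all counts. These rows can also hold uncut precursors, and read counts here do not tell mature tRNA from precursor. As for MT-ND6, whether counting used the strand of a read is not stated. Reads of a tRNA and of the RNA opposite to it therefore cannot be told apart. Uninduced libraries 1, 2 and 3 had 399, 441 and 190 reads in heavy-strand tRNA rows, and the induced libraries of experiment 1 had 673, 531 and 657. The induced libraries were the higher ones, in part with greater depth. Light-strand tRNA rows of experiment 1 had 334 to 746 reads in uninduced and 700 to 826 in induced libraries. These groups overlapped (exact permutation p = 0.3, two-sided, 3 against 3). In experiment 2 the heavy-strand rows had 201, 153 and 186 reads in parental and 96, 93 and 81 in induced libraries. The light-strand rows had 1000, 258 and 247 reads against 95, 116 and 146. Every induced library was again below every parental one, while parental library 1 held more light-strand tRNA reads than any other library of the series. Light-strand rows took a mean of 67.69% of tRNA reads in parental and 56.52% in induced libraries of experiment 2. These groups overlapped (exact permutation p = 0.4, two-sided, 3 against 3). In experiment 1 the means were 61.75% in uninduced and 54.99% in induced libraries, also with overlapping groups (exact permutation p = 0.6).

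The excess of parental library 1 lay in several light-strand tRNAs. MT-TP, the proline tRNA, had 382 reads there and 79 and 62 in parental libraries 2 and 3. MT-TQ, for glutamine, had 291 against 75 and 79, and MT-TE, for glutamate, had 135 against 3 and 0. MT-TA (alanine) and MT-TS1 (serine) had 75 reads each there, against 25 and 37 and against 18 and 15. MT-TY, the tyrosine tRNA of the same strand, did not share the excess: it had 42, 56 and 53 reads in parental and 5, 14 and 8 in induced libraries. Its log2 fold change was -2.20, which is a description only, since MT-TY passed the filter on low counts through its parental libraries alone. MT-TQ, with 28, 25 and 43 reads in induced libraries, fell by 2.00 and, without parental library 1, by 0.92 (edgeR adjusted p = 0.00644).

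Of the 14 tRNAs with a row in experiment 2, 8 passed the filter on low counts and 7 of these were called lower. Among all genes 65% were called and 32.9% were called lower. A row that passes only through the group in which it is high has to differ, so this count supports nothing by itself. Besides MT-TQ, MT-TT (threonine, heavy strand) fell by 1.31, MT-TP by 1.58 and MT-TI (isoleucine, heavy strand) by 0.56. MT-TS1 and MT-TA, at -1.49 and -1.39, owed their place to the parental libraries as MT-TY did. Without parental library 1 only 3 of the 7 were called, MT-TQ, MT-TY and MT-TT, and MT-TP was at -0.14. The call of MT-TI was also lost without induced library 1 or 3. MT-TW, for tryptophan, was not called, at -0.08 (edgeR adjusted p = 0.879). MT-TE did not pass the filter.

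In experiment 1, 14 of 20 tRNAs passed the filter and 3 were called higher, all of the heavy strand. The median log2 fold change was 0.90 for the 8 heavy-strand and 0.49 for the 6 light-strand tRNAs tested. The light-strand share of tRNA reads overlapped between the groups, as given above. Among all genes 20.9% were called and 10.5% were called higher. MT-TS2 and MT-TY, with 4 to 10 reads in each uninduced library, passed the filter mainly through the induced libraries, and neither was called. Such rows tend to differ, so counts over the 14 are a description only. MT-TW had 18, 28 and 17 reads in uninduced and 63, 42 and 45 in induced libraries, a log2 fold change of 1.12 (SE 0.22, edgeR adjusted p = 0.00817). MT-TI had 52, 49 and 26 reads against 101, 79 and 90, with a fold change of 0.98 (edgeR adjusted p = 0.00616). MT-TT had 43, 58 and 34 against 105, 88 and 71, with 0.85 (edgeR adjusted p = 0.0109), a call lost without induced library 1 (0.0573). For each of the 3, the induced libraries held more reads than all uninduced ones. The most abundant rows were not called: MT-TQ was at 0.67, MT-TV (valine) at 0.66, MT-TM (methionine) at 0.52, MT-TE at 0.30 and MT-TP at -0.19. Leaving out uninduced library 3, chosen after seeing the data, raised the count to 7 of 14, and the calls among all genes from 3971 to 5231. MT-TL1, MT-TN, MT-TC, MT-TD, MT-TK and MT-TL2 had between 1 and 14 reads in all 6 libraries together and were not tested.

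Whether the 2 experiments differed in their effects was tested as an interaction over all 12 libraries. Of the 13 mRNAs, 1 had a higher effect in experiment 2 and 8 a lower one, while edgeR called 52.2% of 19942 genes, 25.9% higher and 26.3% lower. MT-CO1 was the higher one, by 0.59 on the log2 scale (SE 0.11, adjusted p = 0.000229). MT-ND6 had the largest negative difference among the mRNAs, -1.43 (SE 0.23, edgeR adjusted p = 3.63e-05), followed by MT-ATP8 at -0.98. MT-CYB and MT-ATP6, which rose in experiment 1, both had differences of -0.73, and MT-CO3 had -0.45. The controls of the experiments differ in cell line and in doxycycline, and these cannot be told apart from the experiment.

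Induced cells of experiment 2 were also set against induced cells of experiment 1, the same line with the same treatment. MT-RNR1 and MT-RNR2 stood at -9.02 and -9.01 on the log2 scale, with 62.1 ± 17.1 against 32181 ± 4379.6 CPM for MT-RNR1 and 485 ± 92.6 against 251109 ± 17614 CPM for MT-RNR2 (SD, n = 3, scaled over all 12 libraries). Of the mRNAs 11 were lower and 1 was higher, while edgeR called 68.9% of all genes, 34.8% higher and 34.2% lower. MT-ATP8 was lowest, at -3.92, and MT-ATP6, MT-ND5, MT-CYB, MT-ND4L, MT-ND4, MT-ND1 and MT-ND2 lay between -2.56 and -1.99. MT-ND6 was at -1.34, MT-CO1 at -0.98 and MT-CO3 at -0.47. MT-CO2 was called higher at 0.19, although its groups overlapped and the call was lost without induced library 2 or 3 of either experiment or parental library 2, and MT-ND3 was not called at 0.15 (edgeR adjusted p = 0.145). The mRNAs thus spread over a wide range between 2 sets of the same line. MT-CO2 and MT-ATP8, next to each other among the mRNA genes, stood at the top and the bottom of it.

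**Figure D5:**
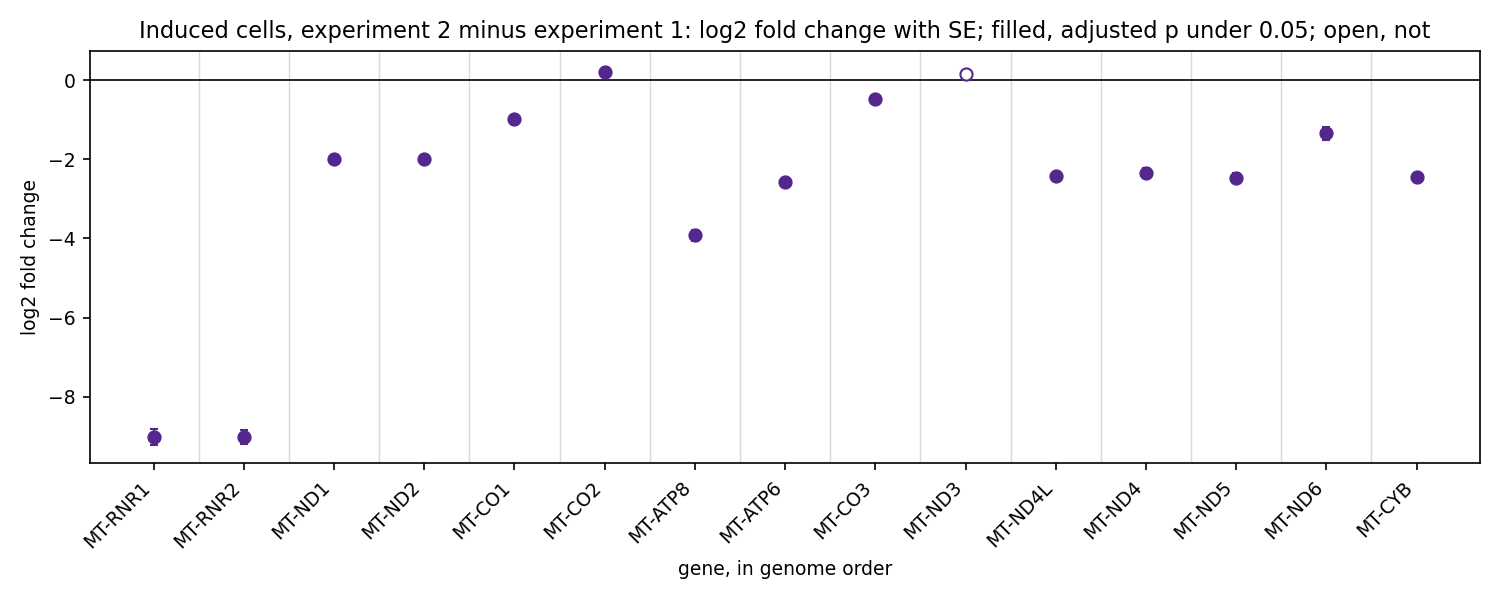
The log2 fold change (points) with its SE (bars) of the 2 rRNAs and 13 mRNAs, in genome order, in induced cells of experiment 2 minus induced cells of experiment 1. The rRNAs lie at -9.02 and -9.01, most mRNAs between -3.92 and -0.47, and MT-CO2 (0.19) and MT-ND3 (0.15, open, not called) just above 0.

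Several tRNAs, beside the rRNA genes and elsewhere, were also scarce in experiment 2. MT-TF, for phenylalanine, had 21 to 41 reads per library in experiment 1 and 1 to 8 in experiment 2. MT-TV, which lies between the rRNA genes, had 51 to 234 reads per library in experiment 1 and 1 read in all 6 libraries of experiment 2 together. MT-TM, which lies among the ND genes, had 20 to 115 reads per library in experiment 1 and 0 to 4 in experiment 2. MT-TE, next to MT-ND6, had 54, 85 and 100 reads in the induced libraries of experiment 1 and 3, 2 and 0 in those of experiment 2. These were the lowest of the 12 tRNAs tested between the induced groups, so they do not stand for all tRNAs. MT-TI was at -0.67 on the log2 scale and MT-TY, not called, at -0.36 (edgeR adjusted p = 0.463). In the parental libraries MT-TI had 77 to 102 reads and MT-TY 42 to 56, against 26 to 101 and 5 to 16 in experiment 1. RN7SK, which carries no poly(A) tail, stood at 3.14 ± 0.366% of counts in the induced libraries of experiment 1 and 4.24 ± 0.411% in those of experiment 2. Any difference in library preparation or sequencing run cannot be told apart from the experiment in this comparison. Scaling by library totals in place of TMM moved the median log2 fold change of all genes from -0.022 to 0.18 and the split of calls to 8720 higher and 4982 lower. It left 11 mRNAs lower and called MT-ND3 higher at 0.35.

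Nuclear copies of mitochondrial genes, relics of mitochondrial DNA in the chromosomes, can take reads from their originals. The tables held 131 such rows in experiment 1 and 60 in experiment 2. Copies of mRNA genes held 0.871% to 1.23% as many reads as the mitochondrial mRNAs in experiment 1 and 0.505% to 0.848% in experiment 2. MTATP6P1 was the most abundant, with 12.7 ± 0.814% of the MT-ATP6 count in uninduced and 26.0 ± 1.24% in parental cells (SD, n = 3). It rose by 0.47 in experiment 1 and fell by 0.38 in experiment 2 (edgeR adjusted p = 0.00655 and 0.00159), and the split of reads between it and MT-ATP6 is uncertain. MTRNR2L8 and MTCO1P12 had 102 and 41.8 CPM in uninduced library 3 against 33.6 and 11.5 CPM at most in its companions, and neither was called in experiment 1. MTCO1P12 rose in experiment 2 by 0.79, and MTND2P28 and MTCO3P12 were not called in either experiment. The authors' circular RNA tables held no entry on the mitochondrial chromosome, 0 of 29693 and 0 of 26796.

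The nuclear genes that serve these transcripts were taken from 6 lists with 83 genes, of which 81 were tested. In experiment 1, 26 were called higher and 5 lower by edgeR, 38.3% against 20.9% of all genes. In experiment 2, 20 were higher and 41 lower, 75.3% against 65% of all genes. Without uninduced library 3 the first count was 42, and without parental library 1 the second was 63. Their median log2 fold changes were 0.18 and -0.14, and the shares describe the list without showing that it stands apart from other genes.

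In experiment 1 the transcription and nucleoid list had 6 of 18 genes higher and 1 lower. TWNK, the replicative helicase of mitochondrial DNA, rose from 14.8 ± 0.612 to 23.5 ± 1.02 CPM (log2 0.67), and TFB2M, the initiation factor that opens the promoters, from 4.84 ± 0.293 to 7.02 ± 0.488 CPM (0.54, SD, n = 3). TFB1M, its paralog that methylates the small rRNA, fell by 0.43. Of 14 processing genes 5 rose and 0 fell, among them FASTKD5 (0.50), which matures mRNA ends not marked by tRNAs, and PTCD1 (0.46). Of 11 stability genes 3 rose, with ENDOG (0.55) and DHX30 (0.35) ahead, and PTCD2 fell by 0.22. Of 19 modification genes 6 rose, led by the pseudouridine synthases TRUB2 (0.61) and PUS1 (0.43), and 3 fell, TRIT1 by 0.30. Of 12 translation genes 3 rose, with TSFM, an elongation factor (0.28), and TACO1, the translational activator of MT-CO1 (0.26). Of 8 biogenesis regulators 3 rose, GABPA (0.47) and PPARGC1B (0.43) among them, and PPARGC1A fell by 0.24. The edgeR adjusted p of these genes lay between 0.000601 (TWNK) and 0.0432 (PPARGC1A).

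In experiment 2 the transcription and nucleoid list had 13 of 18 genes lower and 3 higher. TOP1MT, the mitochondrial type I topoisomerase, fell from 74.3 ± 4.37 to 42.4 ± 1.90 CPM (log2 -0.81), and TEFM, the elongation factor, from 16.6 ± 0.0989 to 9.72 ± 1.25 CPM (-0.78, SD, n = 3). MTERF2 (0.51) and TFB2M (0.27) rose. Of 14 processing genes 6 rose and 6 fell. TRNT1, which adds the CCA end to tRNAs, rose from 24.5 ± 0.725 to 49.1 ± 5.26 CPM (1.00) and PTCD1 by 0.93, while TRMT10C and ELAC2, of the enzymes that cut the 5′ and 3′ ends of tRNAs, fell by 0.46 and 0.45. Of 11 stability genes 2 rose, PTCD2 (0.46) and ENDOG (0.19), and 4 fell, among them SLIRP, the partner of LRPPRC in keeping mRNAs stable, by 0.57 and DHX30 by 0.44. Of 19 modification genes 5 rose, with NSUN4 (0.59) and NSUN2 (0.45), and 11 fell, with TRMT61B (-0.82) and TRUB2 (-0.78). Of 12 translation genes 4 rose, with MTRF1L (0.66) and GFM2 (0.43), and 7 fell, with MTIF2 (-0.46) and TUFM (-0.45). Of 8 biogenesis regulators PPARGC1A alone changed, at -0.83. The edgeR adjusted p of these genes lay between 8.54e-12 (TRUB2) and 0.0395 (ENDOG).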

How the data were processed

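Raw gene counts, whole numbers without normalization, were deposited by the authors in 1 table per experiment. STAR 2.5.2b and GRCh37 (hg19) are listed per the submitters' processing notes. The counting tool, its strand setting and any removal of rRNA are not given in the sources used here. Per the labels' protocols, total RNA went into Illumina's TruSeq RNA preparation for paired-end reads. The deposited counts of back-splice reads were searched for mitochondrial entries only.

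MT- genes had no symbol in the tables and were named from their Ensembl identifiers. Gene order and length came from RefSeq genes of GRCh38.p14, which is not the build of the counts, so no position is printed. Low genes were dropped by filterByExpr (at least 10 counts, 15 in total). The rest were scaled by TMM and tested, each experiment alone and two-sided, by edgeR's quasi-likelihood method (edgeR 4.0.16, R 4.3.3). Calls were made under 0.05 after Benjamini-Hochberg adjustment across every gene tested. Genes in both tables entered a 12-library model for the difference between experiments. CPM is scaled by the effective (TMM) library size, and a share by the raw total. Shares were compared by exact permutation tests, two-sided, which cannot go below 0.1 with 3 libraries per group. DESeq2 1.42.0 and the other alternatives are given at the end. On simulated data the edgeR step recovered 43.1%, 79.7% and 98.4% of genes changed by 0.5, 1 and 2 on the log2 scale for experiment 1 (18708 genes), and 61.7%, 79.7% and 100% for experiment 2 (17621 genes). The simulation left 18515 and 17428 of these genes unchanged, while 20.9% and 65% of genes were called in the real data. Recovery with that many changed genes was not tested.

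All mRNAs and rRNAs were named, with the 5 most abundant and every called tRNA, the 2 called genes of each nuclear list with the largest change in each direction, and the 3 most abundant nuclear copies per experiment. MT-TF and the tRNAs too low to test were named after their values were seen. The members, the lists and these rules were chosen with earlier results of these data known. Replicate numbers did not pair the libraries (see the dependence on processing).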

Additional observations from a re-analysis of the deposited data

Results flagged for a closer look

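Of the 27 mitochondrial RNAs tested in the model of all 12 libraries, 17 had an effect in experiment 2 that differed from that in experiment 1 by the interaction test of edgeR (adjusted p under 0.05), while 52.2% of all genes did. MT-CO1 at 0.59 and MT-RNR2 at 0.77 on the log2 scale had positive differences, and MT-CO3 had -0.45. Called complex I mRNAs had negative differences: MT-ND2 at -0.56, MT-ND3 at -0.65, MT-ND4L at -0.48 and MT-ND6 at -1.43. MT-ATP8 was at -0.98, MT-ATP6 at -0.73 and MT-CYB at -0.73. The heavy-strand tRNAs MT-TI, MT-TW and MT-TT were at -1.55, -1.20 and -2.16. The light-strand tRNAs MT-TQ, MT-TA, MT-TY and MT-TE were at -2.65, -2.23, -2.91 and -4.81. Rows that pass the filter on low counts through the groups in which they are high have to differ. Counts that include tRNAs, such as the 17 above, are therefore a description only. Within experiment 2, MT-TY and MT-TA passed the filter through the parental libraries alone, and MT-TE did not pass it. MT-TE rests on parental library 1, which held 135 of its 143 reads in experiment 2. MT-TQ and MT-TA also had their highest counts of experiment 2 in that library, 291 and 75 reads. Leaving it out gave log2 fold changes of -0.92 for MT-TQ and -0.72 for MT-TA within experiment 2, and MT-TA was then not called. The controls differ in cell line and doxycycline, and the causes were not tested.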

How the results depend on the processing

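The replicate numbers did not pair the libraries: same-numbered libraries had correlations of 0.194, -0.11 and 0.0194 in experiment 1 and of 0.00479, 0.0296 and -0.0162 in experiment 2. With the replicate block edgeR called 2 mRNAs in experiment 1, 9 in experiment 2 and 9 in the interaction. It called 2327 of all genes in experiment 1 against 3971 without it, and MT-CO3 was lost (adjusted p = 0.0579). In experiment 1, DESeq2 called 5 mRNAs, no filter on low counts 8, and leaving out single libraries 2 to 5, with 1581 (without induced library 1) to 5231 (without uninduced library 3) of all genes. In experiment 2, DESeq2 called 5 mRNAs and leaving out libraries 8 to 10. The interaction gave 9 to 10 and the comparison of induced cells 11 to 13 in the same way. Without the library that stood apart, added after seeing the data, 7 tRNAs were called in experiment 1 and 3 in experiment 2. Differences that turned sign were uncalled with all libraries and wherever they turned, although MT-ND4 in experiment 2 was called at its upper end, without parental library 2. Leaving out single libraries gave -0.026 to 0.053 points for the light-strand share of mitochondrial mRNA in experiment 1. It gave -0.357 to 0.681 points for the rRNA share of the same experiment. On the log2 scale it gave in experiment 1 -0.032 to 0.047 for MT-CO1 (with DESeq2 -0.00049 and with library totals -0.017), -0.11 to 0.044 for MT-ND4, -0.035 to 0.13 for MT-ND5, -0.028 to 0.17 for MT-RNR1, -0.041 to 0.077 for MT-RNR2, -0.10 to 0.65 for MT-TE and -0.50 to 0.070 for MT-TP. In experiment 2 it gave -0.048 to 0.058 for MT-CO2 and -0.053 to 0.18 for MT-ND4. For the interaction it gave -0.097 to 0.073 for MT-ND1 (0.0035 with library totals), -0.039 to 0.20 for MT-ND4 and -0.066 to 0.33 for MT-RNR1. The causes were not tested. Depth limits the tRNAs, with at most 1401 reads in a library.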
